A study of Mus musculus with 20 samples.

Results

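The genes described here are 10 members of the MHC class I antigen presentation pathway, taken by symbol from a table of 52783 genes: H2-K1, H2-D1, B2m, Tap1, Tap2, Tapbp, Nlrc5, Psmb8, Psmb9 and Erap1. All 10 were found and all 10 passed the filter on low counts in every comparison. RNA was sequenced from cells sorted out of primary mammary tumours grown in young adult female BALB/cJ mice, after 1 of 2 lines of the 4T1 breast cancer model had been injected into the mammary fat pad. Tumours of the 67NR line stay at the primary site, whereas cells of 66cl4 tumours spread to the lungs. Each line was studied as a single line, so that a difference between the tumours is a difference between these lines. Each tumour was sorted on the leukocyte surface protein CD45 into CD45+ (immune) and CD45- (all other) cells, which gave 4 groups of 5 libraries from 10 animals, with both gates taken from each animal. The CD45- cells hold the tumour cells together with fibroblasts and endothelial cells of the host.

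MHC class I molecules show peptides from inside the cell to CD8 T cells and are read by inhibitory receptors of natural killer cells. The proteasome cuts proteins into peptides, the TAP transporter carries them into the endoplasmic reticulum, ERAP1 trims their ends, and tapasin holds empty class I molecules at TAP until a peptide binds. H2-K1 and H2-D1 encode the classical heavy chains, and B2m encodes beta-2 microglobulin, the light chain common to all class I molecules. Nlrc5 encodes the transactivator that, with the RFX factors, drives the heavy chain, B2m, Tap1 and Psmb9 promoters, and interferons raise the pathway, in part through IRF1.

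Upstream sequences of 5 of the genes are shown because the data divide them: H2-K1, H2-D1 and B2m stood lower in 66cl4 than in 67NR CD45- cells, Psmb8 stood higher, and Tap1 shares its upstream region with Psmb9. Each is the 250 bases before an annotated start in RefSeq (GRCm38.p6), read 5′ to 3′ on the strand of the gene. They are sequences of the C57BL/6 reference genome, and those of the BALB/c cells measured may differ. Capitals mark every match, on either strand, to 6 searched strings, in which N is any base: GAANNGAAA (an interferon regulatory factor core), the pair of GAAA and GAAA with 2 bases between them (an interferon-stimulated response element), TTCNNNGAA (a gamma-activated site), CCAAT (the CCAAT box), TGACG (a cyclic AMP element core), and GGGA and CC with 4 bases between them (like a kappa B site). The stretches lie at chr17:34000334-34000583 (H2-K1, minus strand, from the more downstream of 2 annotated starts), chr17:35262844-35263093 (H2-D1, plus strand), chr2:122147437-122147686 (B2m, plus strand), chr17:34187306-34187555 (Tap1, plus strand) and chr17:34197945-34198194 (Psmb8, plus strand).
H2-K1: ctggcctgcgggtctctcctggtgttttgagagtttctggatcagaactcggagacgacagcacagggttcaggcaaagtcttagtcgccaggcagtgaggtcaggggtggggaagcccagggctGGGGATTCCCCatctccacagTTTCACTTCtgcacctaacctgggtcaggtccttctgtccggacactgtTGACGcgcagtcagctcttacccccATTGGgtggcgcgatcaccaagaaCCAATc
H2-D1: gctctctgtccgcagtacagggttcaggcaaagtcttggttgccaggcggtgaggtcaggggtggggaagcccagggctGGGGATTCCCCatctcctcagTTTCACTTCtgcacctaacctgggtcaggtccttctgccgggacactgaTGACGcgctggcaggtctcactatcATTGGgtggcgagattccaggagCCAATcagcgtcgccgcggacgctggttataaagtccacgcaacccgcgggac
B2m: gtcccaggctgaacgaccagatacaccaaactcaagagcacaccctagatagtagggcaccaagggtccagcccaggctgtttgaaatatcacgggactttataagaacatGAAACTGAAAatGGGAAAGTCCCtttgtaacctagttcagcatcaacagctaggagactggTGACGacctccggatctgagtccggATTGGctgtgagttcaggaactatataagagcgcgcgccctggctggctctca
Tap1: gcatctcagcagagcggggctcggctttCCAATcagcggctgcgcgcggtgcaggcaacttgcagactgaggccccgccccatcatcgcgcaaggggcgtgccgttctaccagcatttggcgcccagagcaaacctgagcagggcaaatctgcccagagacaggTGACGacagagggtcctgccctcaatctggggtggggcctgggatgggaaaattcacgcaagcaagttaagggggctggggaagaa
Psmb8: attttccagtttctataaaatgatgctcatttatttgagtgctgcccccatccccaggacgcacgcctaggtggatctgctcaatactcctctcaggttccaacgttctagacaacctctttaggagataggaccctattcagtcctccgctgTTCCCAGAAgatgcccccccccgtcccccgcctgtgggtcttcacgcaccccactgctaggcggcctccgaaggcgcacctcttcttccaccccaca

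The heavy chain stretches carried the same kinds of match in the same order. In H2-K1 the first base of the kappa B-like match stood at -125 from the start, followed by the interferon regulatory factor core at -104, TGACG at -55 and the CCAAT matches at -30 and -6. In H2-D1 the same matches began at -171, -150, -101, -76 and -53. From the other annotated start of H2-K1 its matches began at -111, -90, -41, -16 and 9. The positions thus depend on the start annotated, and a difference in position between the genes need not be a difference in the promoters. B2m had an interferon-stimulated response element match at -139, a kappa B-like match at -127, TGACG at -78 and CCAAT at -53. Psmb8 had 1 kind of match, TTCNNNGAA at -97, and Tap1 had CCAAT at -222 and TGACG at -86. The kappa B-like letters of H2-K1, H2-D1 and B2m overlap a second match on the opposite strand. Of the 10 genes, 8 had a window in the table, reaching 50 bases past the start, and the interferon regulatory factor core occurred in 2 of them (H2-K1 and H2-D1), the response element in 2 (B2m and Erap1), TTCNNNGAA in 1, CCAAT in 6, TGACG in 5 and the kappa B-like string in 3. Over all 32851 windows of the same length the shares were 7.52%, 3.44%, 8.30%, 37.4%, 20.8% and 20.7% in that order. Tap1 and Psmb9 start 226 bases apart on opposite strands of chromosome 17, so that 275 of the 300 bases of their windows are the same.

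The libraries held 12960000 to 28080314 estimated reads, and Ptprc, the gene of CD45, was 33.6 to 1932 times higher in the CD45+ than in the CD45- cells of the same animal, in 10 of 10 animals. In 2 animals with 66cl4 tumours (5 and 6), the gate named in the title and the cell type field disagree for all 4 libraries. The titles were followed. By the titles, Ptprc was at 17697 normalised counts in CD45+ and 138 in CD45- cells of animal 5. In animal 6 it was at 20442 and 40.4. The effect of leaving these animals out is given where it matters, and such fits also have fewer libraries. Neutrophil markers (7 genes) of CD45+ cells summed to between 44191 and 125311 normalised counts in 66cl4 tumours, against 7185 to 52320 in 67NR tumours, and natural killer cell markers (5 genes) from 1050.1 to 4949 and from 4665 to 58435. In the CD45- cells, the sum of epithelial markers (6 genes) ranged from 6057 to 6844 in 66cl4 and from 125 to 391 in 67NR, most of it Krt8 and Krt18, while 1 marker was called lower, fibroblast markers (7 genes) from 8005 to 13726 and from 14014 to 21780, and endothelial markers (6 genes) from 519 to 1039 and from 1050 to 4193. Median leukocyte marker levels (7 genes) in CD45- cells were 0.284% to 0.989% of those in the CD45+ cells of the same 66cl4 animal and 1.24% to 2.98% in 67NR. The highest of these 7 stood at 18.5% to 34.4% in 66cl4 (Itgb2) and at 1.99% to 4.51% in 67NR tumours. Of the 7 neutrophil markers, only Ly6g was at 3 counts or fewer in 66cl4 CD45- cells, and its mean was low, at 68.7 normalised counts, even in 66cl4 CD45+ cells. The neutrophil list sum of the 66cl4 CD45- libraries ran from 149 to 513 normalised counts, below the 67NR CD45- range of 638 to 935. These composition measures moved with the groups, and their part in the results below was not tested.

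In CD45- cells the class I genes did not move as a block between the tumours. Nlrc5 had at most 11 reads in any 66cl4 library, the heavy chains and B2m fell, Psmb8 was higher in 66cl4 than in 67NR cells, and the ranges of Tap2 and Tapbp overlapped. Past both thresholds (an adjusted p below 0.05 in the edgeR quasi-likelihood test, and a log2 fold change beyond 1 in size), 4 of the 10 genes were lower in 66cl4, against 18.9% of the 14844 genes tested, and 1 was higher, against 13.2%. By adjusted p alone, 6 were lower, against 34.1% of all genes tested, and 3 higher, against 33.3%, so that the higher share was that of genes in general. Groups did not overlap for 6 genes that were lower, against 27.1% of all genes, and for 2 that were higher, against 25.8%. In CD45+ cells all 10 log2 fold changes were below 0, with a median of -0.55 beside 0.01 over all genes tested, yet none passed both thresholds, against 6.82% of genes called lower and 5.01% called higher. By adjusted p alone, 6 of the 10 were lower in 66cl4 CD45+ cells, against 11.3% of all genes, and 3 when animals 5 and 6 were left out, against 8.10% of all genes in that fit. Fewer cells of a type and less RNA per cell cannot be told apart in sorted bulk samples.

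**Figure D1:**
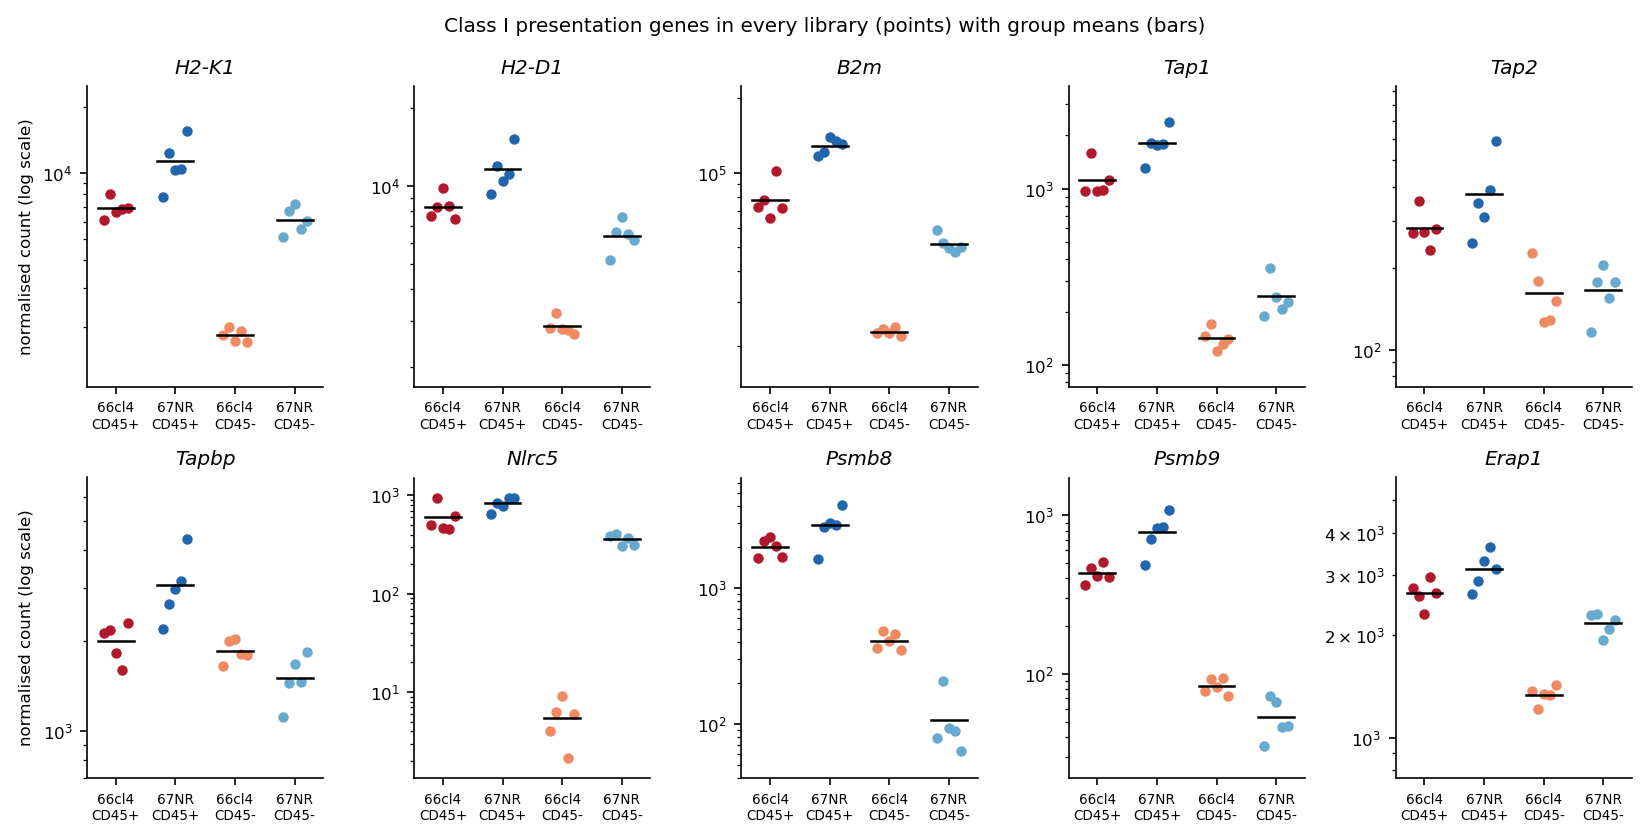
Normalised counts (log axis, a separate range for each gene) of the 10 genes in each of the 20 libraries, with 1 point per animal and a bar at the mean of the 5 libraries of a group. Nlrc5 lies between 2.12 and 9.16 in 66cl4 CD45- cells, with every library of the other groups at 303 or above, while Psmb8 and Psmb9 are lowest in 67NR CD45- cells.

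Values below are normalised counts, that is, estimated reads divided by a size factor of each library, given in the order of the animals (3, 4, 5, 6 and 7 for 66cl4, and 1, 4, 5, 6 and 7 for 67NR). They compare libraries for 1 gene. Between genes only a value per transcript length can be compared, and on that scale, in TPM (the length-scaled share of the library), B2m was the highest of the 10 in each group, at means of 4921 ± 636 (SD, n = 5 here and throughout) in 66cl4 CD45+, 8273 ± 930 in 67NR CD45+, 1541 ± 36.3 in 66cl4 CD45- and 3432 ± 289 in 67NR CD45- cells.

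H2-K1, a classical heavy chain, fell furthest of the chains that form the surface molecule. It was read at 1837, 2002, 1724, 1912 and 1703 in 66cl4 CD45- cells and at 5132, 6711, 7204, 5582 and 6057 in 67NR CD45- cells. The ranges lay far apart, with 3.34 times as much in 67NR. The log2 fold change was -1.71 ± 0.10 (SE; adjusted p = 4.72e-09, edgeR). In CD45+ cells the values were 6085, 8049, 6620.4, 6880.1 and 6955 in 66cl4 and 7768, 12338, 10348, 10413 and 15547 in 67NR. Only the lowest 67NR library reached into the 66cl4 range, and the log2 fold change was -0.68 ± 0.16 (adjusted p = 0.0108). The effect of the tumour differed between the gates by 1.02 ± 0.21 on the log2 scale (adjusted p = 0.000524).

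H2-D1, the other classical heavy chain measured, followed the same order of groups. It ranged from 2683 to 3225 in 66cl4 CD45- cells and from 5176 to 7587 in 67NR CD45- cells, without overlap, with a log2 fold change of -1.13 ± 0.10 (adjusted p = 3.22e-07). The CD45+ ranges, 7428 to 9851 and 9279 to 15219, overlapped (log2 fold change -0.46 ± 0.14, adjusted p = 0.0295), and the gates differed by 0.67 ± 0.18 (adjusted p = 0.00542). BALB/c mice carry other alleles of these genes than the C57BL/6 reference genome, and reads can be divided among class I genes of like sequence. The estimates of H2-K1, H2-D1 and Tapbp were not whole numbers in 100% of libraries, those of Tap2 in 95%, of Tap1 in 90% and of B2m in 0%. Such values thus occur outside the heavy chains too, and do not show which genes share reads. Summed over 16 H2 class I genes, which leaves out any division among them, the mean was 6639 ± 420 in CD45- cells of 66cl4 tumours and 18006 ± 2381 in those of 67NR, 2.71 times as much and without overlap. The CD45+ sums were 23183 ± 2737 and 35186 ± 7767, and overlapped.

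B2m, which class I heavy chains need to fold, was read at 22657, 23484, 22602, 23785 and 21952 in 66cl4 CD45- cells and at 58746, 51863, 49892, 47799 and 50354 in 67NR CD45- cells. Both groups were tight and stood apart by 2.26 times (log2 fold change -1.14 ± 0.09, adjusted p = 1.07e-07). In CD45+ cells it was the only one of the 10 genes whose groups did not overlap, against 7.96% of all genes with 66cl4 wholly below 67NR, at 65491 to 101456 in 66cl4 and 116929 to 139422 in 67NR, with a log2 fold change of -0.71 ± 0.15 (adjusted p = 0.00712). The difference between the gates, 0.44 ± 0.16 (adjusted p = 0.0303), was lost without any 1 of 11 of the 20 libraries and without the filter on low counts.

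**Figure D2:**
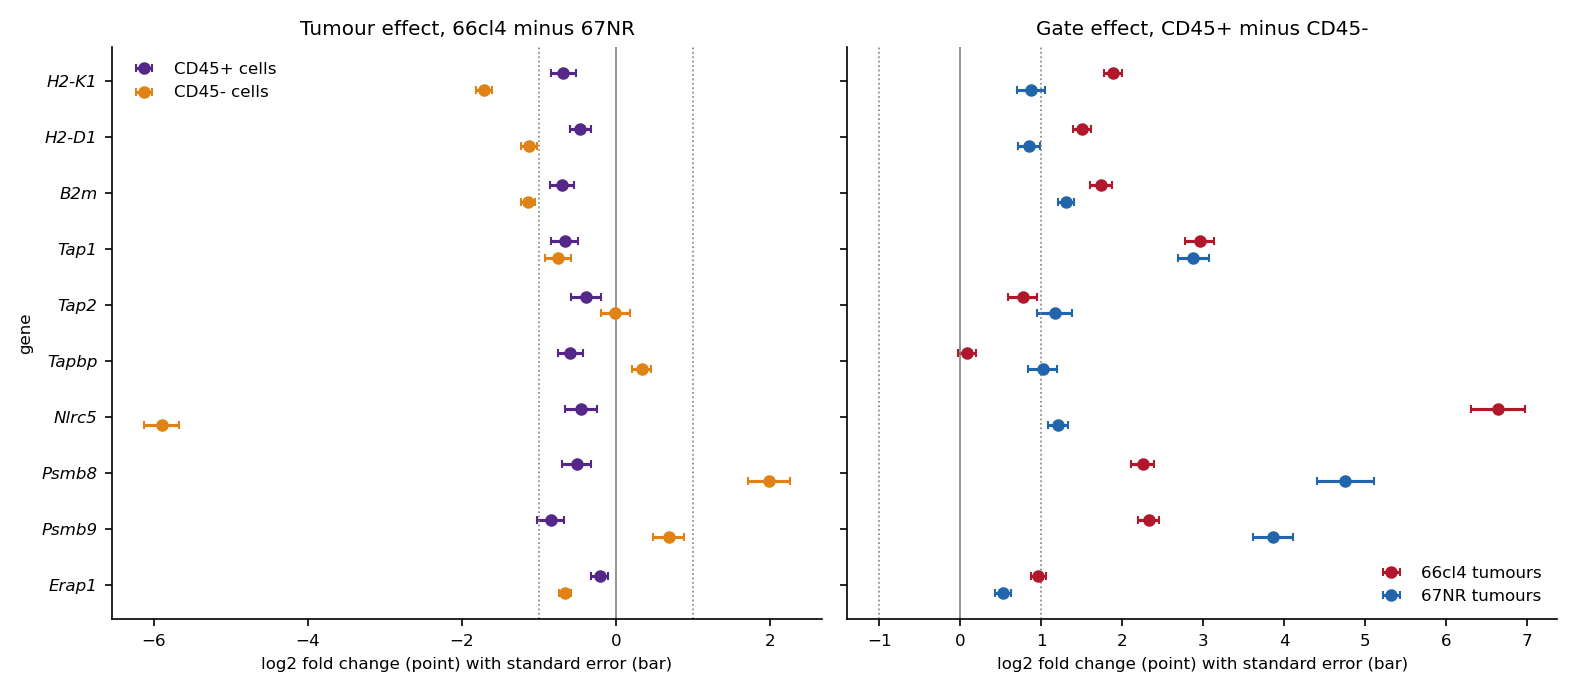
Log2 fold changes (points) with standard errors (bars) of the 10 genes between tumours within each gate (left) and between gates within each tumour (right), with dotted lines at the threshold of 1. In CD45+ cells all points lie between -0.85 and -0.21, whereas in CD45- cells they run from -5.90 for Nlrc5 to 1.98 for Psmb8.

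No gene of peptide transport or loading passed both thresholds between the tumours in CD45- cells. Tap1, a subunit of the TAP transporter, ranged from 121 to 171 in 66cl4 against 189.5 to 356 in 67NR CD45- cells, and its log2 fold change was -0.75 ± 0.17 (adjusted p = 0.00121), under the fold threshold. In CD45+ cells it was read at 968, 1596, 963, 981 and 1114 in 66cl4 and 1314, 1806, 1764, 1785 and 2381 in 67NR, where animal 4 of 66cl4 overlapped the 67NR range (log2 fold change -0.66 ± 0.17, adjusted p = 0.0176). For Tap1 no gate difference in the tumour effect was detected (0.09 ± 0.26, adjusted p = 0.81).

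Tap2, the partner subunit, ranged from 127 to 227 in 66cl4 against 117 to 206 in 67NR CD45- cells, with a log2 fold change of -0.01 ± 0.19 (adjusted p = 0.971). Tapbp, which encodes tapasin, was 1654 to 2029.5 in 66cl4 against 1116 to 1834 in 67NR CD45- cells, and its log2 fold change of 0.33 ± 0.12 (adjusted p = 0.0256) had the opposite sign to that in CD45+ cells, -0.59 ± 0.16 (adjusted p = 0.023). The difference between the gates was -0.93 ± 0.22 (adjusted p = 0.00236). Of the 8 other loading genes listed, which include calreticulin, calnexin and the tapasin relative Tapbpl, none passed both thresholds between the tumours in either gate. By adjusted p alone, 1 was higher and 2 lower in 66cl4 CD45- cells, shares no larger than the 33.3% and 34.1% of all genes, and 1 was lower in CD45+ cells, beside 11.3%.

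The inducible proteasome subunits ran against the heavy chains in CD45- cells. Psmb8 encodes LMP7, the catalytic subunit that takes the place of the Psmb5 product in the immunoproteasome. It was read at 361, 481, 405, 460.0 and 347 in 66cl4 and at 78.1, 206, 93.1, 89.1 and 63.4 in 67NR CD45- cells. The 66cl4 libraries all stood above the 67NR libraries, of which animal 4 was the highest, and the log2 fold change was 1.98 ± 0.27 (adjusted p = 4e-05), or 2.37 without that library. In CD45+ cells the sign was the opposite, at 1661 to 2374 in 66cl4 and 1634 to 4083 in 67NR, a log2 fold change of -0.51 ± 0.19 that did not pass (adjusted p = 0.0769). The tumour effect differed between the gates by -2.49 ± 0.37 (adjusted p = 2.3e-05).

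Psmb9, which encodes LMP2 and replaces the Psmb6 product, was read at 78.3, 92.9, 82.4, 93.5 and 72.9 in 66cl4 and at 35.1, 72.8, 66.7, 46.1 and 47.0 in 67NR CD45- cells. The highest 67NR library nearly touched the lowest 66cl4 library, and the log2 fold change was 0.68 ± 0.20 (adjusted p = 0.00893). In CD45+ cells Psmb9 was lower in 66cl4, at 364 to 504 against 485 to 1081, with a log2 fold change of -0.85 ± 0.17 (adjusted p = 0.00488), which passed the fold threshold, at -1.001, only without 67NR CD45+ replicate 1. The gates differed by -1.53 ± 0.28 (adjusted p = 0.000192).

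Leukocyte markers and Psmb8 were both low in CD45- cells of 67NR tumours. Psmb8 stood there at 1.55% to 7.31% of the CD45+ level in the same animal, where Ptprc stood at 0.669% to 2.98%, and animal 4 was the highest in both. In 66cl4 tumours Psmb8 stood at 17.0% to 22.7% and Ptprc at 0.0518% to 0.891%. The part of leukocyte RNA in the 67NR CD45- values was not tested.

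Ratios within a library do not depend on the scaling between libraries. The Psmb8/Psmb5 ratio of estimated counts was 1.75, 2.74, 2.26, 2.26 and 1.53 in 66cl4 and 0.718, 1.46, 0.397, 0.514 and 0.333 in 67NR CD45- cells, 3.50 times higher in 66cl4 as a ratio of geometric means (p = 0.00794 by an exact two-sided permutation test, which can give no smaller value here, and 0.0136 after adjustment over 12 tests). Psmb10/Psmb7, the ratio for the third inducible subunit, was 0.181 to 0.363 against 0.0766 to 0.116, 2.51 times higher (exact p = 0.00794, adjusted 0.0136). Psmb9/Psmb6 was 0.132 to 0.167 against 0.0764 to 0.133, 1.58 times higher with ranges that met (exact p = 0.0159, adjusted 0.0212). The constitutive subunits themselves had log2 fold changes of 0.26 (Psmb5), 0.05 (Psmb6) and 0.02 (Psmb7), none of which passed (adjusted p = 0.217, 0.727 and 0.915).

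In CD45+ cells the ratios ran the other way. Psmb8/Psmb5 had a mean of 8.20 ± 2.16 in 66cl4 and 13.1 ± 2.89 in 67NR (exact p = 0.0317, adjusted 0.0381), and Psmb9/Psmb6 a mean of 0.776 ± 0.181 and 1.33 ± 0.264 (exact p = 0.0159, adjusted 0.0212), with overlapping groups in both. Psmb10/Psmb7 did not pass, at 0.326 ± 0.0510 and 0.416 ± 0.121 (exact p = 0.190). Without animals 5 and 6 the first 2 of these were at exact p = 0.107 and 0.0536, and Psmb9/Psmb6 in CD45- cells was at 0.0714. Psmb8/Psmb5 in CD45+ cells was at exact p = 0.0556 without 67NR CD45+ replicate 4, 5 or 7.

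**Figure D3:**
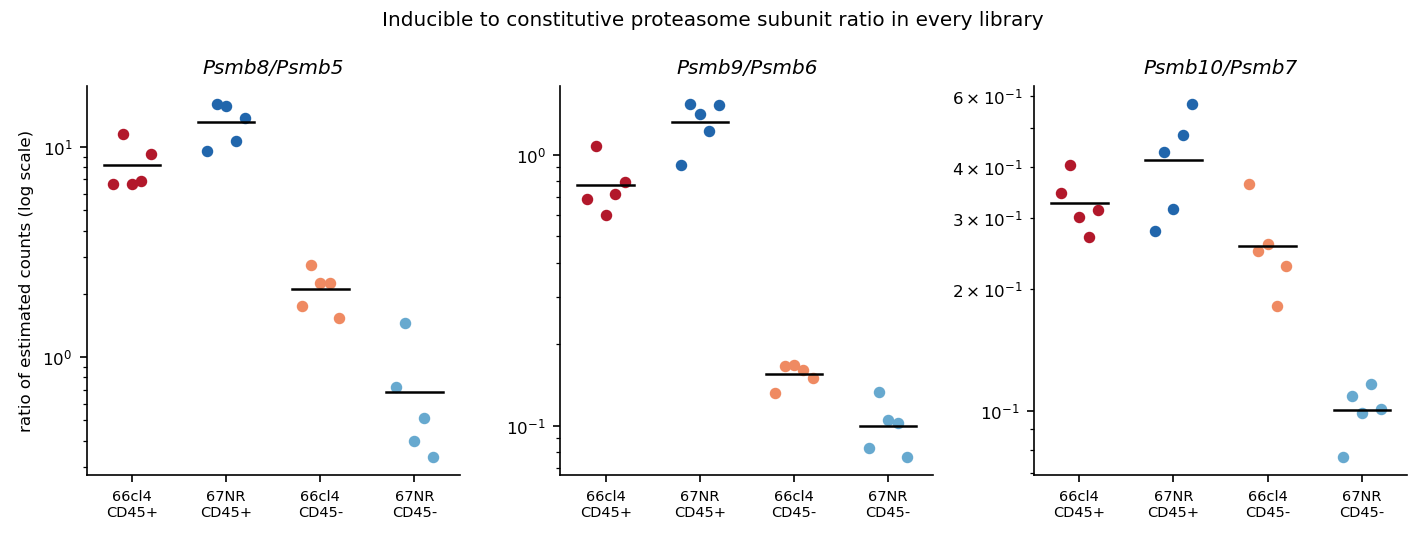
Ratio of estimated counts of each inducible proteasome subunit to the constitutive subunit it replaces (log axes), with 1 point per library and a bar at the group mean. In all 3 panels 67NR CD45- cells have the lowest mean, at 0.683, 0.0998 and 0.1001, and for Psmb8/Psmb5 and Psmb10/Psmb7 no 67NR CD45- library reaches a 66cl4 CD45- library.

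Erap1, the aminopeptidase that trims peptides in the endoplasmic reticulum, followed the heavy chains at a smaller scale. It ranged from 1214 to 1424 in 66cl4 against 1932 to 2309 in 67NR CD45- cells, without overlap (log2 fold change -0.66 ± 0.08, adjusted p = 4.68e-06). The CD45+ values, 2305 to 2972 and 2644 to 3639, overlapped (-0.21 ± 0.11, adjusted p = 0.201), and the gates differed by 0.45 ± 0.13 (adjusted p = 0.00935), which was lost without 66cl4 CD45- replicate 4 or without the filter on low counts. Of the 13 other peptide supply genes, 2 were higher in 66cl4 CD45- cells past both thresholds, a share near the 13.2% of all genes, and none lower. By adjusted p alone 3 were higher and 3 lower, beside 33.3% and 34.1% of all genes. The called genes were Psme1, a subunit of the proteasome activator PA28, at 4303 to 5101 against 1321 to 2056 (log2 fold change 1.41 ± 0.11, adjusted p = 8.41e-08), and Psmb10, the third inducible subunit, at 285 to 422 against 79.0 to 161 (1.32 ± 0.18, adjusted p = 1.46e-05). Their tumour effects also differed between the gates, by -1.81 for Psme1 and -1.65 for Psmb10 (adjusted p = 2.23e-07 and 0.00011). Psme2, the other chain of the same activator, was not called in CD45- cells (0.15 ± 0.13, adjusted p = 0.34).

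Nlrc5, the class I transactivator, showed the widest difference of the 10. In 66cl4 CD45- cells the 5 libraries held 3, 10, 11, 2 and 6 reads, or 3.98, 6.23, 9.16, 2.12 and 5.99 normalised counts. In 67NR CD45- cells the normalised counts were 390.5, 406, 303, 372 and 316. No 66cl4 library came near the 67NR range, and the means of 5.50 ± 2.64 and 357 ± 45.6 stood 65.0 times apart (log2 fold change -5.90 ± 0.22, adjusted p = 4.65e-11). In CD45+ cells the gene was read at 497, 951, 468, 456 and 612 in 66cl4 and at 643, 842, 777, 941 and 944 in 67NR. These groups overlapped, and the log2 fold change of -0.45 ± 0.20 did not pass (adjusted p = 0.132). The difference between the gates was 5.44 ± 0.34 on the log2 scale (adjusted p = 2.34e-10).

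Nlrc5 in CD45- cells was set beside the leukocyte markers of the same libraries. Within an animal, the CD45- level was 0.466% to 1.96% of the CD45+ level in 66cl4 tumours, beside a median of 0.284% to 0.989% for the leukocyte markers. In 67NR tumours it was 33.5% to 60.7%, beside 1.24% to 2.98% for the markers. Ciita, the class II counterpart of Nlrc5 and a gene of antigen-presenting leukocytes, stood at 0.202% to 1.09% in 66cl4 against 0.407% to 3.10% in 67NR tumours. The Nlrc5 share was above the median leukocyte share in 5 of 5 animals with 67NR tumours and in 4 of 5 with 66cl4 tumours, where both shares were below 2%.

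**Figure D4:**
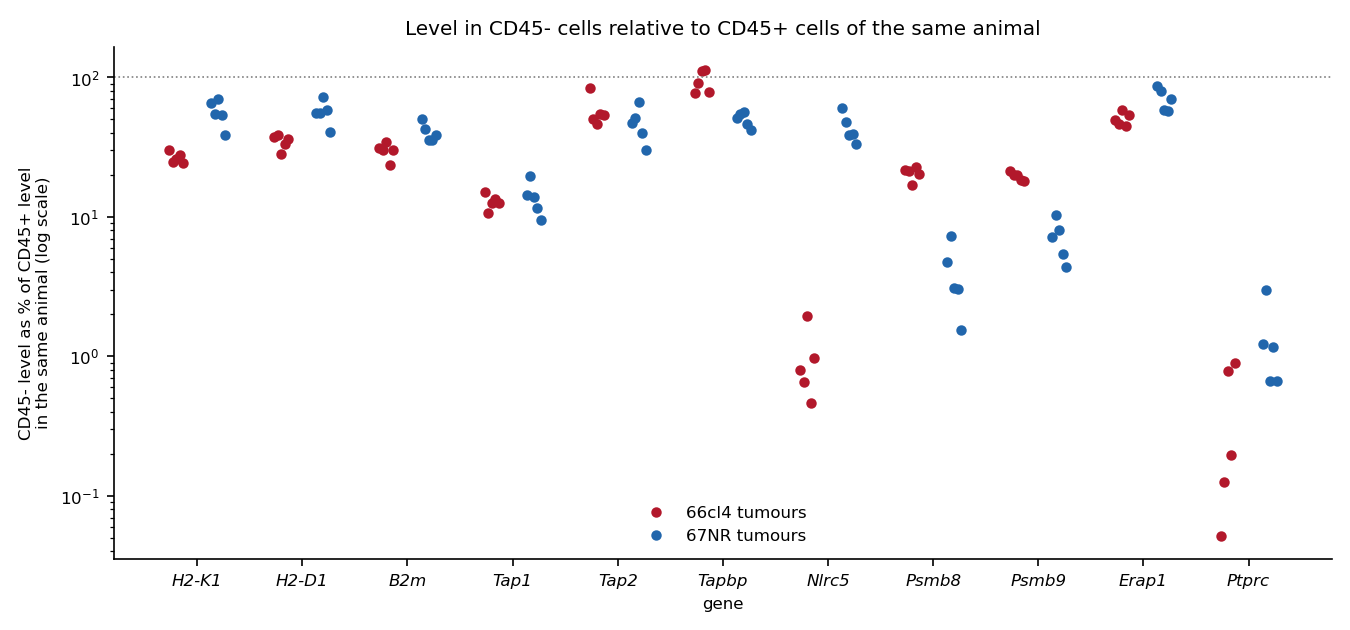
Level in CD45- cells as a percentage of the CD45+ level in the same animal (log axis; dotted line at 100%), for the 10 genes and for Ptprc, with 1 point per animal. Nlrc5 lies at 0.466% to 1.96% in 66cl4 against 33.5% to 60.7% in 67NR tumours, and Psmb8 at 17.0% to 22.7% and 1.55% to 7.31%.

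No regulator other than Nlrc5 fell past both thresholds. Of 21 other regulators listed, 20 were tested in CD45- cells, 3 were higher in 66cl4 past both thresholds, near the 13.2% of all genes, and none lower. The 3 were Socs3, a feedback inhibitor of cytokine signalling (1.71 ± 0.25, adjusted p = 9.04e-05), Ifnar2, a chain of the type I interferon receptor (1.65 ± 0.08, adjusted p = 5.19e-10), and Ifngr2, a chain of the interferon-gamma receptor (1.04 ± 0.09, adjusted p = 2.43e-07). By adjusted p alone, 9 of the 20 were higher and 4 lower in 66cl4, beside 33.3% and 34.1% of all genes. Irf1, an interferon-induced activator of class I promoters, was read at 669.8 to 1007 in 66cl4 against 709.9 to 1125 in 67NR CD45- cells, and its log2 fold change of 0.07 ± 0.13 did not pass (adjusted p = 0.638).

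In CD45+ cells none of the 21 regulators passed both thresholds, and 3 were lower by adjusted p alone, beside 11.3% of all genes. Of 6 interferon genes listed, only Ifng, made by natural killer and T cells, was tested. It was read at 25.1 to 68.5 normalised counts in 66cl4 against 108 to 617 in 67NR CD45+ cells (-3.08 ± 0.43, adjusted p = 0.000769). In the CD45- cells it was at 0 to 2.00 in 66cl4 and 12.3 to 24.5 in 67NR (-4.69 ± 0.59, adjusted p = 8.17e-06). The 67NR mean was 17.4 in CD45- beside 399.5 in CD45+ cells. The part of leukocyte RNA in the CD45- values of Ifng was not tested. All 5 natural killer cell markers were lower past both thresholds in 66cl4 CD45+ cells as well, against 6.82% of all genes, with a median log2 fold change of -2.51. In CD45- cells 2 of them were tested, and 1, Eomes, was called higher in 66cl4, at means of 190 against 4.21 normalised counts.

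Other class I and class I-like genes mostly followed the heavy chains. Of 18 listed, 17 were tested in CD45- cells, 10 were lower in 66cl4 past both thresholds, against 18.9% of all genes, and 3 higher, near the 13.2% of all genes. The list had a median log2 fold change of -1.46 beside -0.01 over all genes tested. The genes lowest in 66cl4 relative to 67NR were H2-Q7 (27.6 to 59.9 against 519.5 to 668, -3.62 ± 0.17, adjusted p = 2.54e-10), H2-M2, at most 6.86 normalised counts in 66cl4 (-2.66 ± 0.53, adjusted p = 0.000533), and H2-T24 (-2.54 ± 0.30, adjusted p = 4.06e-06). Hfe, an iron-regulating protein with a class I fold, was at 726 to 820.1 in 66cl4 against 67.5 to 143 in 67NR CD45- cells (3.04 ± 0.17, adjusted p = 2.29e-09). The other genes called higher were Cd1d1, which presents lipids (2.09, adjusted p = 0.000644), and Mr1, which presents vitamin B metabolites (1.01, adjusted p = 3.93e-06). Reads of the H2-Q and H2-T genes can be exchanged between near-identical copies, so that a value of 1 of them is uncertain.

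In CD45+ cells 16 of these 17 genes had a log2 fold change below 0 and 10 were lower by adjusted p alone, against 11.3% of all genes, but only Fcgrt, the neonatal Fc receptor (-1.18 ± 0.17, adjusted p = 0.000581), and H2-T10 (-1.09 ± 0.17, adjusted p = 0.00127) passed both thresholds. Genes of receptor families that read class I molecules mostly changed with the natural killer markers: of 14 tested, 9 were lower in 66cl4 CD45+ cells, against 6.82% of all genes, and 1 higher, beside 5.01%. The furthest were the Ly49 receptor genes Klra4, Klra3, Klra9 and Klra7, at log2 fold changes of -3.04, -3.01, -2.81 and -2.40, a family of near-identical genes whose reads may be misassigned. The gene called higher was Lilrb4a (1.11 ± 0.28, adjusted p = 0.0134), listed by its family, and whether its product reads class I was not measured. Cd8a, the co-receptor of T cells that read class I, did not pass (0.06 ± 0.60, adjusted p = 0.964). In CD45- cells 4 receptor genes were tested. Klra2 (-4.39) and Pirb (-1.99) were lower in 66cl4 past both thresholds, against 18.9% of all genes. Of the 7 leukocyte markers, 3 were also called lower in 66cl4 CD45- cells and 1 higher. The part of leukocyte RNA in the receptor values was not tested. Psme2, Cd1d1, Mr1, Lilrb4a and Cd8a were named after their values were seen.

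**Figure D5:**
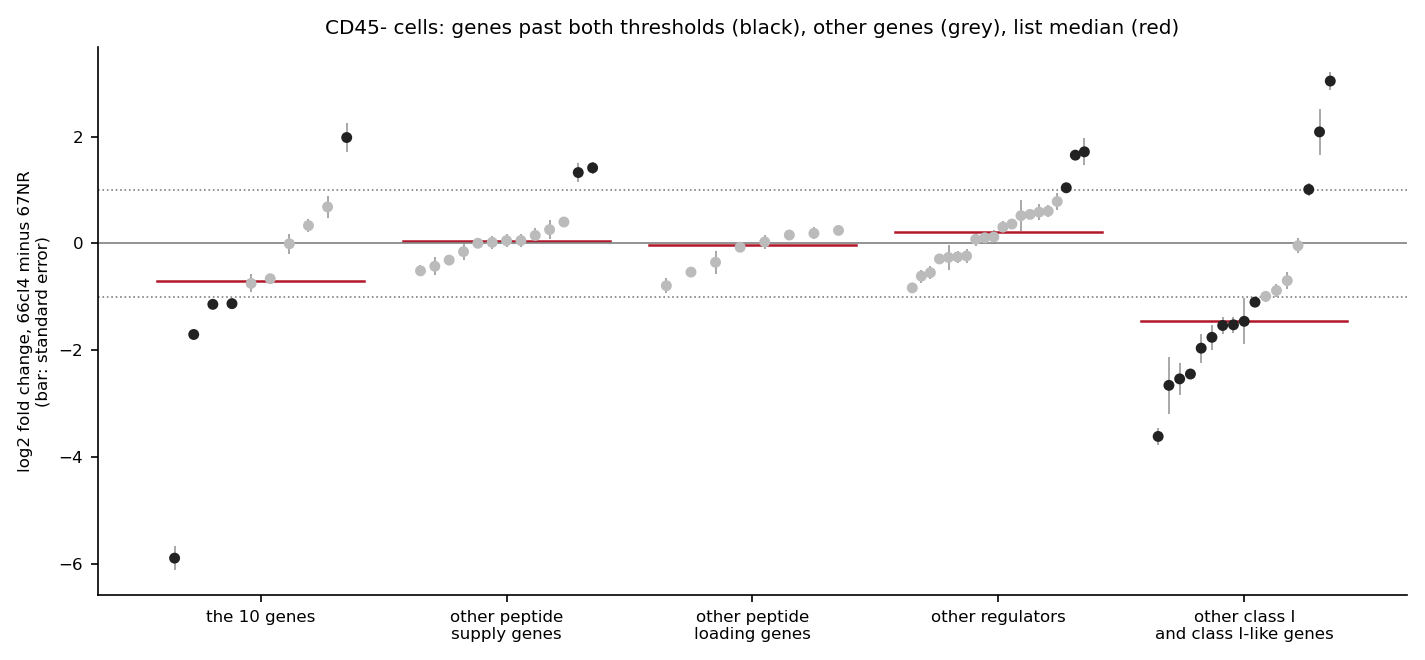
Log2 fold change between 66cl4 and 67NR CD45- cells (vertical axis, bars show the standard error) of each tested gene in 5 lists, sorted within a list, with black points past both thresholds and a red line at the list median. The 10 genes have a median of -0.71 and the other class I genes -1.46, beside 0.05, -0.02 and 0.21 for supply, loading and regulator genes.

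Between the gates the class I genes stood higher in immune cells in both tumours. In 66cl4 tumours all 10 log2 fold changes were above 0 and 7 passed both thresholds as higher in CD45+ cells, against 23.9% of genes tested, with none lower against 20.5%. In 67NR tumours 7 were also called higher, against 20.2%, and none lower against 19.6%. The median log2 fold change was 1.81 in 66cl4 and 1.19 in 67NR tumours, beside 0.00 and -0.05 over all genes. In 66cl4 tumours 9 genes stood higher in CD45+ cells without overlap, against 31.4% of all genes, and in 67NR tumours all 10 did, against 27.5%. These 2 comparisons use the same libraries as those between the tumours.

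The size of the gate difference depended on the gene. Nlrc5 went from a log2 fold change of 6.64 ± 0.33 in 66cl4 (adjusted p = 5.69e-09) to 1.21 ± 0.13 in 67NR (adjusted p = 6.34e-06). Psmb8 and Psmb9 did the reverse, at 2.25 ± 0.14 and 2.33 ± 0.13 in 66cl4 but 4.76 ± 0.35 and 3.87 ± 0.25 in 67NR tumours. Tap1 stood at 2.96 ± 0.17 and 2.88 ± 0.19, which is 7.92 and 7.39 times by means, in 66cl4 and 67NR tumours. H2-K1 and H2-D1 passed the fold threshold only in 66cl4 (1.89 and 1.504, against 0.87 and 0.85 in 67NR), and B2m in both (1.74 and 1.31).

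Tapbp was the gene of the 10 whose gates overlapped in 66cl4 tumours. Its CD45- level was 77.6% to 113% of the CD45+ level in the same 66cl4 animal, higher in CD45+ cells in 3 of 5 animals (log2 fold change 0.08 ± 0.11, adjusted p = 0.522). In 67NR tumours the share was 42.0% to 56.2% (1.02 ± 0.18, adjusted p = 0.00033), a call that was lost, at 0.92 to 0.99, without 67NR CD45- replicate 1 or 4 or CD45+ replicate 7. Tap2 was called in 67NR (1.17 ± 0.22, adjusted p = 0.000573) and was under the fold threshold in 66cl4 (0.77 ± 0.18). Erap1 was at 0.96 ± 0.09 in 66cl4, just under the fold threshold and over it, at 1.02, with DESeq2, and at 0.52 ± 0.10 in 67NR tumours.

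Of the 8 genes whose tumour effect differed between the gates by adjusted p, for 5 the effect in CD45+ cells was the higher of both (Nlrc5, H2-K1, H2-D1, Erap1 and B2m), against 21.9% of the 16453 genes tested, and for 3 it was the lower (Psmb8, Psmb9 and Tapbp), against 21.2%. Tap1 and Tap2 were not called. Among the other lists, the supply genes with such a difference were Psme1 and Psmb10, with the values above, and Npepps (1.06, adjusted p = 0.000496) and Nrd1 (0.66, adjusted p = 0.00122), cytosolic peptidases whose effect was higher in CD45+ cells. Of the regulators 1 had a higher and 6 a lower effect there, of the other class I genes 9 and 4, and of the loading genes 1 and 1, beside the 21.9% and 21.2% of all genes.

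Of the 21 regulators, 11 were higher in immune cells past both thresholds in each tumour, against 23.9% of all genes in 66cl4 and 20.2% in 67NR, and none lower. By adjusted p alone, 3 were lower in CD45+ cells of 66cl4 tumours, against 5450 of the 14916 genes tested. The 11 that were higher in 66cl4 tumours included Ciita (7.73 ± 0.45), Irf8, a factor of myeloid and B cells (4.596 ± 0.12), and Ifngr1 (1.97 ± 0.11). In 67NR tumours the furthest were Ciita (6.14 ± 0.42), Irf8 (5.70 ± 0.40), Ifnar2 (2.87 ± 0.09) and Ifngr1 (2.57 ± 0.13). Of the supply genes, Psmb10, Psme1, Uba7 and Psme2 passed both thresholds as higher in CD45+ cells of 67NR tumours (2.22, 1.89, 1.58 and 1.08), and Uba7, the enzyme that activates ISG15, did so in 66cl4 tumours (1.57). By adjusted p alone, 8 of the 13 supply genes were higher in CD45+ cells of 66cl4 tumours, against 5442 of the 14916 genes tested. In 67NR tumours 5 of 13 were, a share near that of all genes (4915 of 15063). A difference between the tumours was called for Psmb10 and Psme1 but not for Uba7 or Psme2 (adjusted p = 0.0521 for Psme2). Thop1, a cytosolic oligopeptidase that degrades peptides, was lower in CD45+ cells of both (-1.13 and -1.16). Of the 17 other class I genes tested, 12 were higher and 1 lower in CD45+ cells of 66cl4 tumours, against 23.9% and 20.5% of all genes, and 8 were higher in 67NR tumours, against 20.2%. All receptor genes tested, 12 and 14, were higher, and no loading gene was called.

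Over the 20 libraries, the median of the 10 genes on the log2 scale, centred on each gene's mean, was 1.07 in 67NR CD45+, 0.45 in 66cl4 CD45+, -0.34 in 67NR CD45- and -1.10 in 66cl4 CD45- cells. B2m lay nearest to this profile (root mean square difference 0.210) and Psmb8 and Nlrc5 furthest (1.38 and 1.36). Among 9138 other genes, with a median difference of 0.988, the 8 nearest were Tor3a (0.194), Rnf166, Scamp2, Lbh, Trim30a, Coro1b, Camk1 and Ppp1r9b (0.266). Since the 20 libraries fall into 4 groups, this likeness mostly describes the order of the group means.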

How the data were processed

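RNA of 20 libraries was prepared with the SENSE mRNA-Seq kit V2 (Lexogen). Per the labels and the study's methods, the authors demultiplexed reads with bcl2fastq (2.2.20 in the submitters' processing notes, while the methods give another version number), quantified them with Salmon 1.3.0 and summed them to genes with tximport, and the deposited values are estimated counts per gene, not normalized. The build named is GRCh38, although the gene identifiers are those of mouse, so no coordinates were taken from it. Reads shared between near-identical genes are divided by Salmon, which bears on the H2 and Klra families, and 15.1% to 18.0% of values were not whole (tolerance 1e-06).

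The 10 genes and all gene lists were chosen with earlier results of these data known. Estimated counts were rounded to whole numbers. Each comparison used its own 10 libraries (the difference between gates all 20) in edgeR 4.0.16 (R 4.3.3), with TMM scaling, the expression filter (minimum count 10, total 15) and the robust quasi-likelihood test with Benjamini-Hochberg adjustment over all genes tested. A call needed an adjusted p below 0.05 and an absolute log2 fold change above 1, or the adjusted p alone for the difference between gates. Normalised counts are estimated counts divided by DESeq2 1.42.0 size factors, and TPM used the median GENCODE M21 transcript length, which 97.6% of genes had. Subunit ratios were compared by exact permutation of log2 ratios over 252 splits. Beyond the 10 genes, the text names up to 4 called genes of a list and comparison by size of change, the subunits behind the ratios, Ptprc, Irf1, Ciita and the 8 genes of nearest profile, with exceptions stated and 1 gene that the rule names not reported here. Likeness used genes of at least 10 CPM, with a pseudocount of 1.

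The CD45+ and CD45- libraries that share a line and a number are from 1 animal. Deviations of such pairs from their group means correlated at 0.04 to 0.31 for 66cl4 and at -0.03 to 0.40 for 67NR. Numbers shared between tumours pair nothing, so in the comparisons between tumours the replicate block below joins unrelated animals. Alternatives were DESeq2, RLE scaling, no filter, 1 fit of all 20 libraries, the replicate block, omission of 66cl4 animals 5 and 6, and omission of single libraries. No label says more of separate preparations than the animal. Scripts were tested on simulated counts. Plots used Python 3.11.15 and matplotlib 3.10.9.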

Additional observations from a re-analysis of the deposited data

Results flagged for a closer look

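Of 52 groups of 5 libraries examined, where chance alone gives about 5%, or 2.6, 2 held a library far from the other 4. Tap1 was 1596 normalised counts in 66cl4 CD45+ animal 4 and 963 to 1114 in the others. Psmb8 was 206 in 67NR CD45- animal 4 and 63.4 to 93.1 in the others, and the same animal had the highest Ptprc level in CD45- cells, at 2.98% of its CD45+ level. The part of leukocyte RNA in this Psmb8 value was not tested.

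The effect of the tumour differed between the gates for 8 genes (effect in CD45+ minus effect in CD45- cells, log2 scale, adjusted p below 0.05 in edgeR). The difference was 5.44 for Nlrc5, 1.02 for H2-K1, 0.67 for H2-D1, 0.45 for Erap1 and 0.44 for B2m. It was -2.49 for Psmb8, -1.53 for Psmb9 and -0.93 for Tapbp.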

How the results depend on the processing

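Under the alternatives other than single-library omission, 274 fold changes of the 10 genes kept their direction and their side of the thresholds, 2 changed sign, 2 newly passed and 2 no longer passed. With 1 library left out these numbers were 567, 12, 6 and 15. Tap2 in CD45- cells, near 0, changed sign without the filter on low counts (0.026), without 66cl4 animals 5 and 6 (0.21) and within the single-library range of -0.14 to 0.085. The Tap1 difference between gates ran from -0.17 to 0.20 with 1 library left out. The number of genes called with a positive difference between gates fell from 5 to 3 without the filter. The calls of B2m and Erap1 were lost there, while their sign stayed positive. With 1 library left out the number called ranged from 3 to 5, 3 being without 66cl4 CD45- replicate 4. The B2m difference alone was lost without 66cl4 CD45- replicate 3, 4, 5 or 7, 66cl4 CD45+ replicate 4 or 7, 67NR CD45- replicate 1, 4 or 7, or 67NR CD45+ replicate 1 or 4 (0.34 to 0.42). Calls of lower genes in CD45+ cells ranged from 0 to 1 (Psmb9 without 67NR CD45+ replicate 1). Erap1 between gates of 66cl4 tumours passed the fold threshold with DESeq2 (1.02) and RLE scaling (1.03).

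Without animals 5 and 6, log2 ratio differences no longer passed for Psmb8/Psmb5 in CD45+ (-0.53), Psmb9/Psmb6 in CD45+ (-0.64) and Psmb9/Psmb6 in CD45- cells (0.60). With 1 library left out, Psmb8/Psmb5 in CD45+ cells ran from -0.82 to -0.61 and did not pass without 67NR CD45+ replicate 4, 5 or 7 (exact p = 0.0556), and Psmb10/Psmb7 between gates of 66cl4 tumours ran from 0.26 to 0.51 and passed without 66cl4 CD45- replicate 3. With the replicate block no count of called members changed, but the block reflects a pairing only where gates are compared. Sign flips within animals gave an exact p of 0.0625, the smallest possible with 5 pairs, for each ratio between gates except Psmb10/Psmb7 in 66cl4 tumours (0.125). Over all genes, calls lower in 66cl4 than in 67NR CD45+ cells rose from 1001 to 1525 in 1 fit of 20 libraries. Those by adjusted p alone went from 1654 to 2540 in that fit and to 940 with the block, which there joins unrelated animals. Calls higher in CD45+ cells of 66cl4 tumours rose from 3562 to 5363 with DESeq2 and 5483 without the filter. With the longest transcript in place of the median, chosen after seeing the data, 31 of 40 TPM values moved by more than 1 SD. The causes were not tested.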
